A study of Arabidopsis thaliana with 8 samples.

Results

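The calcineurin B-like proteins (CBL) of Arabidopsis thaliana are calcium sensors, and the CBL-interacting protein kinases (CIPK) are the protein kinases they bind. The family consists of 36 genes, taken as every gene whose symbol or synonym in the RefSeq gene table is CIPK or CBL with a number, which gave 26 CIPK and 10 CBL genes and included SOS2 as CIPK24 and SOS3 as CBL4. A probe was matched to 35 of them, out of 25383 loci with a matched probe. CBL3 had no matched probe and is not analysed here.

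A CBL protein binds calcium through EF-hands and docks on a short motif in the regulatory domain of a CIPK, which frees the kinase domain and brings it to the membrane where its CBL sits. The kinases then phosphorylate ion transporters, channels and oxidases. The pathway is best known in roots, where it controls sodium export, potassium uptake and nitrate transport, and it also acts in guard cells and in growing pollen tubes.

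Flower buds and roots of 6-week-old Col-0 plants grown in hydroponics were compared on 8 one-colour Cy3 arrays, 4 per tissue, each array holding RNA pooled from 8 to 10 plants. Both tissues were of the wild type, and the labels used here name no treatment. Levels are given as log2 of the probe's signal relative to the 75th percentile of its array, so that 0 is the 75th percentile, and a difference is the mean log2 level of the 4 flower bud arrays minus that of the 4 root arrays, ± its SE. Probes differ in how brightly they hybridise, so a level is compared between tissues and not between genes. Genes were called where limma gave an adjusted p under 0.05 (Benjamini-Hochberg, over all 22264 genes tested) and the tissues differed 2-fold or more. In whole organs, fewer cells of a type and less RNA per cell cannot be told apart.

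The 75th percentile of the signal was 4661 to 4803 on the flower bud arrays and 2560 to 3574 on the root arrays. All 8 arrays lay on 1 slide, with flower buds in the second row and roots in the first, so row and tissue cannot be told apart. The 4 floral markers (SEP1, SEP2, AP1 and PI), the 4 anther and pollen markers (VGD1, AHA9, EXL4 and GRP17) and the 3 green-tissue markers (SBPASE, RBCS2B and GAPB) were called higher in flower buds, with differences of 5.68 for PI to 14.14 for GRP17. The 4 root markers (EXPA7, CASP1, NRT2.1 and PHT1;1) were called higher in roots, at -11.28 for CASP1 to -14.40 for NRT2.1. No root array was well above background for SEP1, SEP2, SBPASE or the 4 anther and pollen markers, and no flower bud array for EXPA7 or NRT2.1. The differences of these markers, among them GRP17 and NRT2.1, are therefore fitted against background.

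Most CIPK and CBL genes had more transcript in roots. Of the 35 genes measured, 4 were called higher in flower buds, 24 were called higher in roots and 7 were not called. Over all genes tested, the calls took in 30.2% as higher in flower buds and 24.8% as higher in roots, a split of 55.0% to flower buds among the calls, which was 65.9% with scaling on reference genes. Of the kinases, 2 had their higher level in flower buds, 19 in roots and 5 were not called. Of the sensors, 2 had their higher level in flower buds, 5 in roots and 2 were not called. The median difference of the 35 genes was -1.72, also with the 3 genes measured in 1 tissue alone set at their bounds, against 0.15 for all genes tested. All 35 passed the filter on dim probes, but CIPK13, CIPK17, CIPK20 and CBL5 passed it through 1 tissue alone. Among the 31 family members well above background on all 8 arrays, the calls were 2 for flower buds and 22 for roots, beside 22.3% and 24.7% of the 17962 genes on the array that met that condition. All 4 calls in flower buds were of 16-fold or more, as were 5 of the calls in roots, beside 8.87% and 8.27% of all genes tested. These sizes depend on the background: CIPK20 and CBL5 had no root array well above background. Under normexp, another background correction, CIPK20 was at 2.36, CBL5 at 1.98 and CBL8, higher in roots, at -3.83, each under 16-fold. The flower bud and root arrays of 29 of the 35 genes did not overlap, beside 79.2% of all genes tested.

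**Figure D1:**
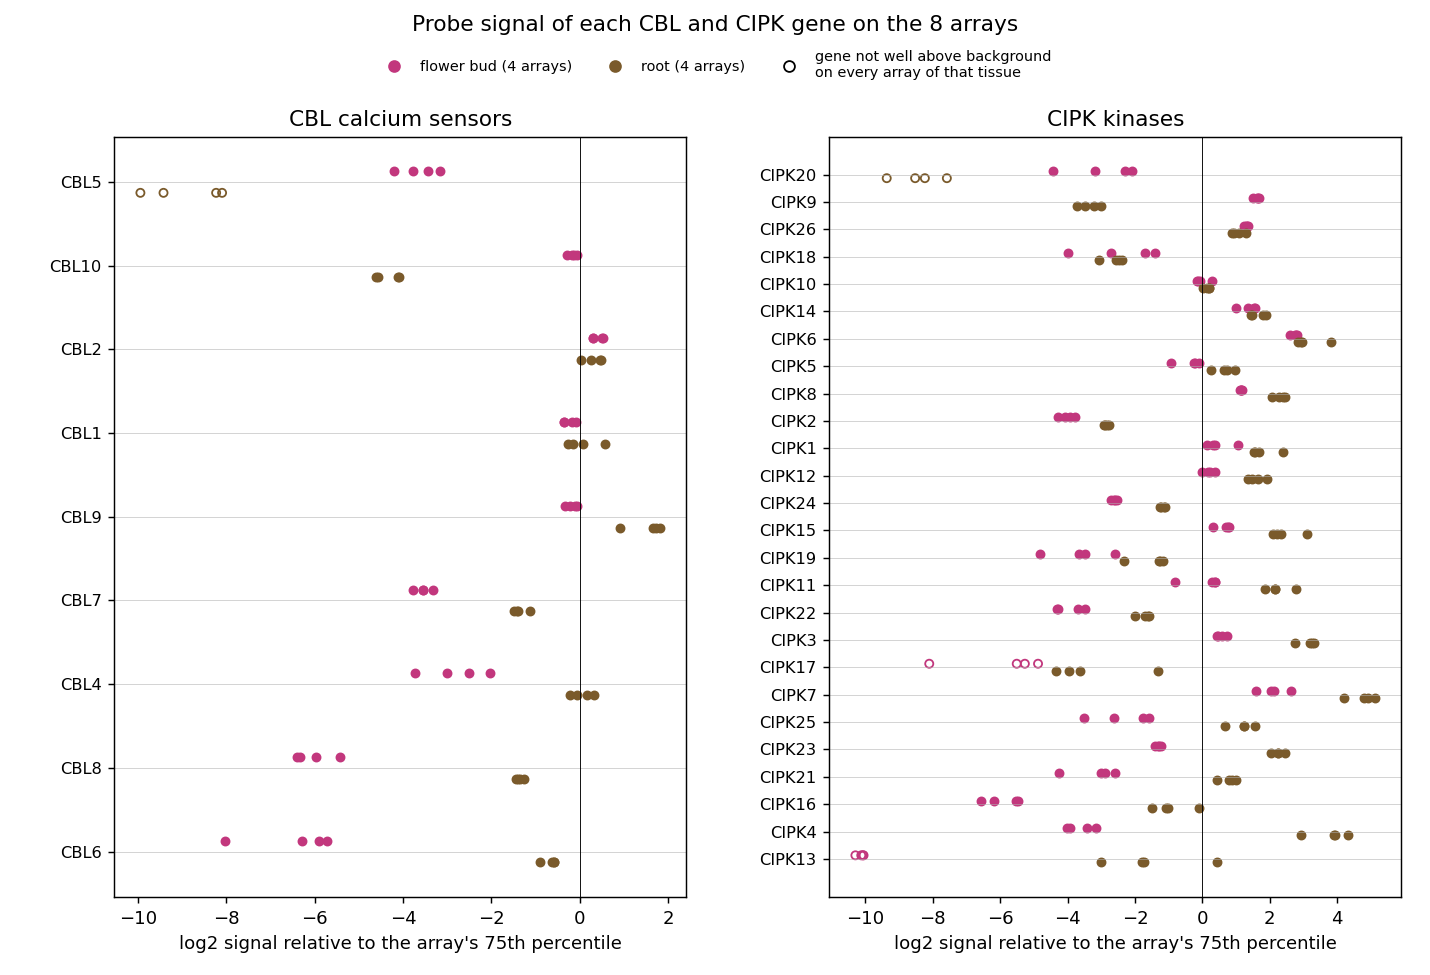
Levels of the 9 CBL and 26 CIPK genes with a probe, as log2 signal relative to the 75th percentile of the array, with one point per array (flower buds above roots in each row) and genes ordered by their difference within each panel. The flower bud points of CBL6, CIPK4 and CIPK13 at the bottom lie far to the left of their root points. The root points of CBL5 and CIPK20 at the top lie far to the left of their flower bud points. Hollow points mark a gene that was not well above background on every array of that tissue.

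CBL1, CBL4, CBL5, CBL8 and CBL9 have an N-terminal myristoylation site and act mainly at the plasma membrane, and 1 of these 5 was called higher in flower buds, 3 higher in roots and 1 was not called. The shares over all genes tested were 30.2% for flower buds and 24.8% for roots. CBL4 (AT5G24270), which is SOS3, the sensor of the salt overly sensitive pathway in roots, had levels of -2.04, -2.52, -2.998 and -3.73 in flower bud replicates 1 to 4, against 0.17, -0.06, -0.23 and 0.33 in root replicates 1 to 4. Its difference was -2.87 ± 0.34 (adjusted p = 6.86e-05), and the tissues did not overlap. CBL8 (AT1G64480), a close relative of CBL4 that also takes part in salt responses, gave -5.42, -5.97, -6.33 and -6.40 in the buds and -1.36, -1.27, -1.41 and -1.45 in the roots. At -4.66 ± 0.21 (adjusted p = 1.78e-07) its signal in buds was well below that in roots on every array, and its second probe differed by -4.66 as well. Under normexp, another background correction, the difference of CBL8 was -3.83.

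CBL5 (AT4G01420) went the other way. Its flower bud levels were -3.17, -3.45, -3.79 and -4.21, while no root array was well above background, with root values of -9.95, -8.10, -8.23 and -9.43. A bound on the processed signals put the buds 18-fold above the roots. It sets the mean of the buds against the lowest signal well above background on each root array or the probe's own signal, whichever was higher. The lowest such signal of a whole array is a low limit, so the true difference can be smaller than the bound. For each family member and interacting gene given as a bound, the difference under normexp was smaller than the bound. The fitted difference was 5.27, and 1.98 under normexp. No p is given for it because its root values are background.

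CBL1 (AT4G17615) and CBL9 (AT5G47100) are closely similar sensors that together recruit CIPK23 to the plasma membrane. CBL1 was not called, with -0.09, -0.17, -0.36 and -0.35 in buds and 0.07, -0.16, -0.27 and 0.56 in roots, and the arrays of the tissues overlapped. Its difference of -0.29 ± 0.18 had a 95% interval of -0.72 to 0.13 (adjusted p = 0.168). CBL9 had -0.07, -0.10, -0.22 and -0.34 in flower buds against 1.66, 1.82, 1.73 and 0.92 in roots, a difference of -1.72 ± 0.20 (adjusted p = 6.32e-05) without overlap. Within an array CBL1 minus CBL9 averaged -0.06 ± 0.06 in buds and -1.48 ± 0.78 in roots (SD, n = 4 each), and the difference of 1.42 between these had an adjusted p of 0.0286 in an exact two-sided permutation test over the arrays, the smallest that 4 against 4 allows, with 3 pairs tested. In the same exact test the adjusted p was 0.0571 under normexp and on leaving out any 1 flower bud array.

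The sensors of the vacuolar membrane were split. CBL2, CBL3, CBL6 and CBL10 have been placed at the tonoplast, and of the 3 with a probe 1 was called in each direction. Of all genes tested, 30.2% were called for flower buds and 24.8% for roots. CBL10 (AT4G33000), known as the partner of SOS2 in shoots, had levels of -0.19, -0.13, -0.29 and -0.07 in flower buds, against -4.10, -4.13, -4.61 and -4.57 in roots. The buds were 18.1-fold above the roots (4.18 ± 0.14, adjusted p = 3.67e-08), and a second probe of the gene gave 4.01. CBL6 (AT4G16350) had the largest fitted difference among the sensors, with -5.72, -5.91, -6.28 and -8.04 in flower buds against -0.62, -0.59, -0.58 and -0.91 in roots and a difference of -5.81 ± 0.47 (adjusted p = 6.57e-06). All bud values of CBL6 lay far below the roots, and flower bud replicate 4 was the dimmest; under normexp the difference was -4.62. CBL2 (AT5G55990), which regulates the vacuolar proton pump together with CBL3, was not called: 0.30, 0.50, 0.52 and 0.29 in buds, 0.48, 0.47, 0.25 and 0.03 in roots, and a difference of 0.10 ± 0.13 with a 95% interval of -0.19 to 0.39 (adjusted p = 0.495). CBL7 (AT4G26560), a sensor without a myristoylation site whose gene lies next to that of CBL3, had -3.56, -3.56, -3.33 and -3.79 in buds and -1.43, -1.39, -1.48 and -1.13 in roots, at -2.20 ± 0.12 (adjusted p = 7.09e-07).

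**Figure D2:**
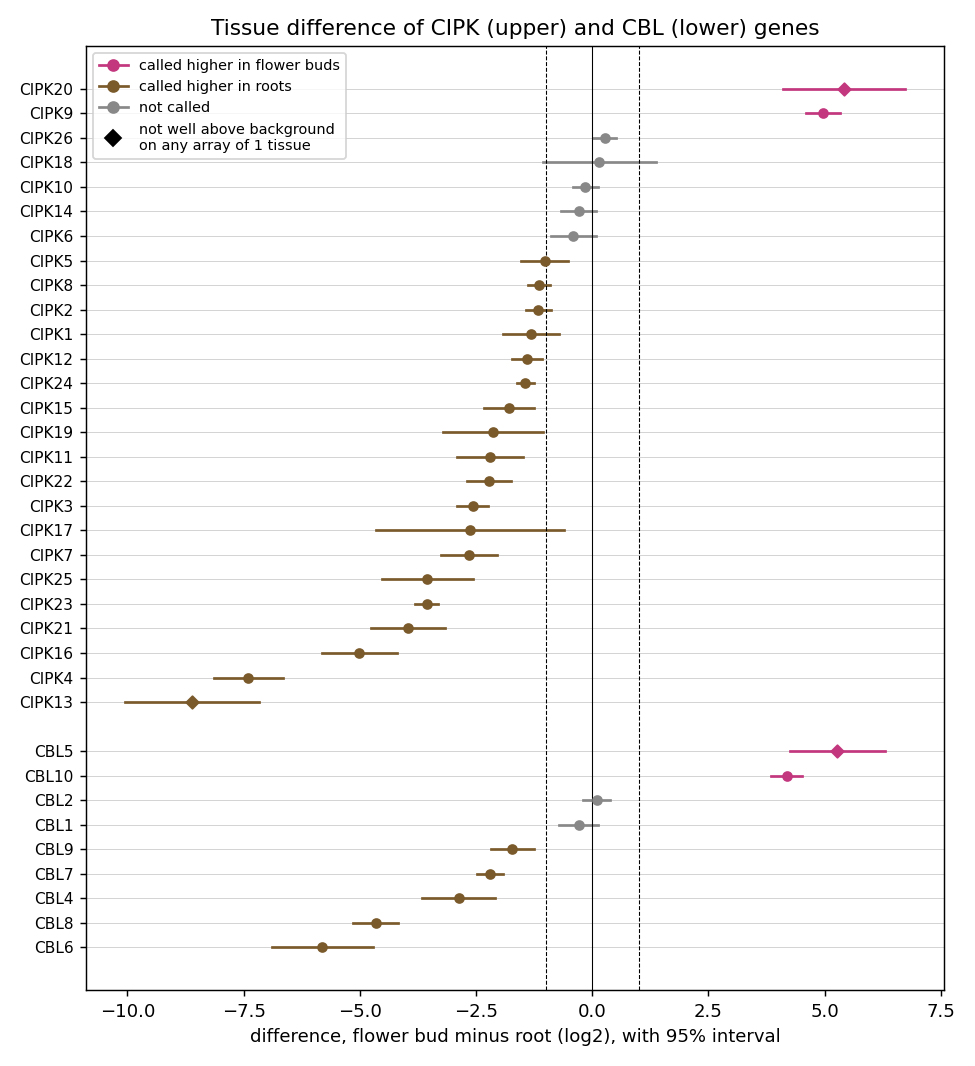
Difference of each CIPK gene (upper block) and CBL gene (lower block) as log2 of flower bud minus root with its 95% interval from limma; dashed lines mark 2-fold and diamonds mark genes that no array of one tissue measured well above background. CIPK20, CIPK9, CBL5 and CBL10 lie at 4.18 or more, and 24 genes lie at -1.02 or below.

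The kinases fall into an intron-rich and an intron-poor clade, and both held mostly genes called higher in roots: 7 of 9 in the intron-rich clade, with 1 higher in flower buds, and 12 of 17 in the intron-poor clade, with 1 higher in flower buds. Over all genes tested, 24.8% were called higher in roots and 30.2% higher in flower buds. In the intron-rich clade CIPK23 (AT1G30270), which activates the potassium channel AKT1 and phosphorylates the nitrate transporter NPF6.3, had levels of -1.30, -1.32, -1.22 and -1.41 in buds, against 2.26, 2.24, 2.04 and 2.46 in roots. The roots were 11.8-fold above the buds (-3.56 ± 0.11, adjusted p = 1.69e-08), with little spread in either tissue. CIPK9 (AT1G01140), which acts in potassium homeostasis, was the intron-rich gene called in the opposite direction. Its levels were 1.64, 1.60, 1.49 and 1.68 in flower buds and -3.21, -3.02, -3.74 and -3.48 in roots, so that buds were 31.2-fold higher (4.96 ± 0.16, adjusted p = 2.35e-08).

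CIPK24 (AT5G35410), the kinase SOS2 that activates the sodium exporter SOS1, was measured at -2.61, -2.54, -2.72 and -2.58 in flower buds and -1.25, -1.22, -1.14 and -1.10 in roots. Its difference of -1.44 ± 0.08 (adjusted p = 7.21e-07) was in the direction of CBL4 and against that of CBL10, its root and shoot partners. CIPK8 (AT4G24400), a kinase of the nitrate response, had 1.17, 1.15, 1.14 and 1.11 in buds and 2.40, 2.27, 2.44 and 2.06 in roots, and differed by -1.15 ± 0.10 (adjusted p = 1.14e-05). It was just under 2-fold under normexp and quantile normalization, at -0.97 and -0.98. CIPK21 (AT5G57630), a kinase of the salt response at the vacuole, had -2.60, -2.89, -3.004 and -4.26 in flower buds against 0.88, 0.80, 0.98 and 0.43 in roots. It differed by -3.96 ± 0.34 (adjusted p = 9.75e-06), and its lowest bud array was replicate 4.

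CIPK3 (AT2G26980), which acts in abscisic acid and cold signalling, had 0.58, 0.73, 0.43 and 0.45 in buds and 3.30, 3.20, 3.25 and 2.73 in roots, at -2.57 ± 0.14 (adjusted p = 6.88e-07). Its 3 probes gave differences from -2.57 to -2.66. CIPK26 (AT5G21326), which phosphorylates the oxidase RBOHF, ranged from 1.25 to 1.36 in flower buds and from 0.89 to 1.29 in roots. The difference of 0.26 ± 0.11 had an adjusted p of 0.0453 but was under 2-fold, and so was not called; its other probes gave 0.40 and 0.30. CIPK1 (AT3G17510), a partner of CBL1 and CBL9 in osmotic stress, had 0.38, 0.30, 0.12 and 1.05 in buds and 1.67, 1.52, 1.55 and 2.39 in roots, with replicate 4 highest in both tissues. It differed by -1.32 ± 0.26 (adjusted p = 0.00155), and its 3 probes gave -1.26 to -1.39. CIPK17 (AT1G48260) had -4.88, -5.51, -5.27 and -8.10 in flower buds, where replicate 4 was not well above background, and -3.63, -4.34, -3.95 and -1.31 in roots. The difference of -2.63 ± 0.87 (adjusted p = 0.0215) was -1.91 without flower bud replicate 4 and -1.97 without root replicate 4, and under normexp background correction it was -2.04. The p of the main fit takes in the flower bud value that was not well above background. With the replicate number as a block in the limma fit, CIPK17 was not called (adjusted p = 0.0765).

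In the intron-poor clade the largest differences towards roots were those of CIPK13, CIPK4 and CIPK16. CIPK13 (AT2G34180) was not well above background on any flower bud array, where its values were -10.05, -10.29, -10.07 and -10.12, and had -1.73, -1.78, -3.01 and 0.42 in root replicates 1 to 4. The bound used for CBL5 put it 194-fold higher in roots. The fitted difference was -8.61, and it was -7.96 without root replicate 4, -4.60 under normexp and -8.01 under quantile normalization. No p is given for it because its flower bud values are background. CIPK4 (AT4G14580) was well above background on all 8 arrays, with -3.14, -3.42, -3.92 and -4.02 in buds and 3.91, 3.92, 4.33 and 2.94 in roots. The roots were 169-fold above the buds (-7.40 ± 0.32, adjusted p = 1.47e-07). CIPK16 (AT2G25090), a kinase linked to salt tolerance, had -5.48, -5.52, -6.18 and -6.58 in flower buds and -1.02, -1.07, -1.51 and -0.11 in roots, a difference of -5.01 ± 0.35 (adjusted p = 2.63e-06) that was -4.16 under normexp.

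CIPK7 (AT3G23000), a partner of CBL1 in the cold response, had 2.04, 2.13, 1.60 and 2.64 in buds against 4.91, 4.79, 5.13 and 4.20 in roots, at -2.66 ± 0.26 (adjusted p = 2.25e-05). CIPK25 (AT5G25110), which acts in the root meristem, had -1.60, -1.76, -2.62 and -3.50 in flower buds and 1.57, 1.24, 1.23 and 0.67 in roots, at -3.55 ± 0.42 (adjusted p = 7.14e-05). The buds of CIPK25 were spread over a range of 1.90 and still did not reach the roots. CIPK11 (AT2G30360), also called PKS5, restrains the plasma membrane proton pump AHA2. Its levels were 0.28, 0.36, -0.81 and 0.36 in buds, replicate 3 being the lowest, and 2.16, 2.16, 1.86 and 2.78 in roots, at -2.19 ± 0.31 (adjusted p = 0.000205) and -2.62 by the second probe. CIPK22 (AT2G38490) had -3.49, -3.69, -4.28 and -4.31 in buds and -1.62, -1.70, -1.99 and -1.60 in roots, at -2.22 ± 0.21 (adjusted p = 1.64e-05).

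CIPK12, CIPK2 and CIPK5 differed by less. CIPK12 (AT4G18700), a kinase of polar pollen tube growth, was higher in roots, with 0.18, 0.37, -0.01 and 0.23 in flower buds against 1.46, 1.65, 1.91 and 1.36 in roots and a difference of -1.41 ± 0.14 (adjusted p = 2.56e-05). CIPK2 (AT5G07070) had -3.79, -4.08, -4.29 and -3.93 in buds and -2.84, -2.79, -2.92 and -2.89 in roots, at -1.16 ± 0.12 (adjusted p = 2.60e-05). CIPK5 (AT5G10930) lay at the edge of the 2-fold limit, with -0.24, -0.22, -0.94 and -0.09 in buds and 0.63, 0.97, 0.73 and 0.26 in roots and a difference of -1.02 ± 0.22 (adjusted p = 0.00262). It was under 2-fold without root replicate 2, root replicate 3 or flower bud replicate 3, at -0.91, -0.99 and -0.83. With scaling on reference genes, which moved the median of all genes by 0.42 towards flower buds, CIPK1, CIPK2, CIPK5, CIPK8 and CIPK12 were under 2-fold, at -0.90, -0.75, -0.61, -0.73 and -0.99.

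Of the kinases, 5 did not reach the call, and 4 of these are of the intron-poor clade. CIPK6 (AT4G30960), which brings the potassium channel AKT2 to the plasma membrane, ranged from 2.58 to 2.82 in flower buds and from 2.84 to 3.81 in roots. Its difference of -0.41 ± 0.21 had a 95% interval of -0.90 to 0.09 (adjusted p = 0.11), although the arrays of the tissues did not overlap. CIPK10 (AT5G58380) ranged from -0.17 to 0.28 in buds and from 0.02 to 0.20 in roots, with an interval of -0.42 to 0.12. CIPK18 (AT1G29230) ranged from -3.98 to -1.42 in flower buds and from -3.07 to -2.38 in roots, and its interval of -1.06 to 1.37 left room for a 2-fold difference in either direction.

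Of the genes in the family, 3 pairs are direct neighbours on a chromosome, and 2 of these pairs had probes for each gene. CIPK19 (AT5G45810), which acts with CIPK12 in pollen tubes, had -2.60, -3.49, -3.67 and -4.81 in flower buds, against -1.27, -1.30, -1.18 and -2.31 in roots. Its difference was -2.13 ± 0.46 (adjusted p = 0.00274). Its neighbour CIPK20 (AT5G45820), also called PKS18 and linked to abscisic acid responses, had -2.10, -2.30, -3.19 and -4.43 in flower buds, while the root values of -8.52, -7.58, -8.23 and -9.37 were not well above background on any array. The bound used for CBL5 put the buds 26.4-fold above the roots. The fitted difference of CIPK20 was 5.42, and 2.36 under normexp, and no p is given for it because its root values are background. Within an array CIPK19 minus CIPK20 averaged -0.64 ± 0.37 in buds and 6.91 ± 0.43 in roots (SD, n = 4 each), but the root values of CIPK20 in this difference are background, so no p is given for it.

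CIPK14 (AT5G01820) and CIPK15 (AT5G01810) are the other such pair, and both have been linked to abscisic acid signalling. CIPK15, also known as PKS3, had 0.78, 0.71, 0.75 and 0.33 in flower buds against 2.08, 2.33, 2.20 and 3.11 in roots, at -1.79 ± 0.23 (adjusted p = 0.000124). CIPK14 was not called, with a range of 1.00 to 1.55 in buds and 1.44 to 1.90 in roots and an interval of -0.68 to 0.09, and its dimmer second probe differed by -0.84. CIPK14 minus CIPK15 averaged 0.72 ± 0.40 in buds and -0.77 ± 0.59 in roots (SD, n = 4 each), a difference of 1.498. In the exact two-sided permutation test over the arrays its adjusted p was 0.0286, the smallest that 4 against 4 allows. The test used the brighter probe of CIPK14.

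**Figure D3:**
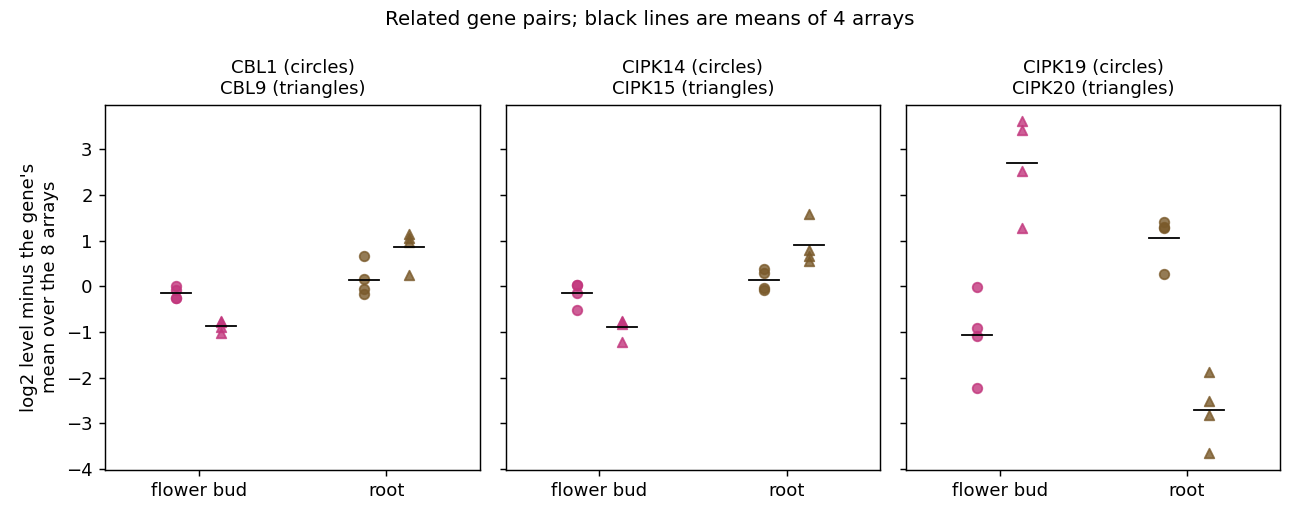
Levels of CBL1 and CBL9, CIPK14 and CIPK15, and CIPK19 and CIPK20 as log2 minus the gene's own mean over the 8 arrays, with flower buds left of roots, one symbol per array and a black line at the mean of 4 arrays. CIPK20 stands high in flower buds where CIPK19 stands low, and CBL9 separates the tissues by more than CBL1.

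The flower bud pools differed among themselves for some family members. Of the 33 genes well above background on all 4 flower bud arrays, 4 spanned 4-fold or more among these arrays: CIPK18 with a range of 2.57, CIPK20 with 2.33, CBL6 with 2.32 and CIPK19 with 2.22. Over all genes 4.12% did so. The range of CBL6 rests on flower bud replicate 4, at -8.04, while its other flower bud values ran from -5.72 to -6.28. On that array CIPK17, at -8.10, was not well above background. In each of the 4 genes flower bud replicate 1 was highest and replicate 4 lowest, as was the case for 654 of the 873 such genes on the array. The pollen tube gene VGD1 had the same extremes, at 3.22, 2.56, 1.82 and 1.15 in flower bud replicates 1 to 4. Of the other anther and pollen markers AHA9 had 1.21, -0.26, 0.22 and -0.21, EXL4 had 2.96, 3.01, 2.82 and 2.88 and GRP17 had 5.36, 5.51, 4.87 and 5.15. The summed signal of the 4 markers was 4107% to 6041% of the 75th percentile in buds and 0.748% to 1.82% in roots. Whether pollen content plays a part in the spread of the family members was not tested. CIPK23 and CIPK9 each spanned 0.19.

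**Figure D4:**
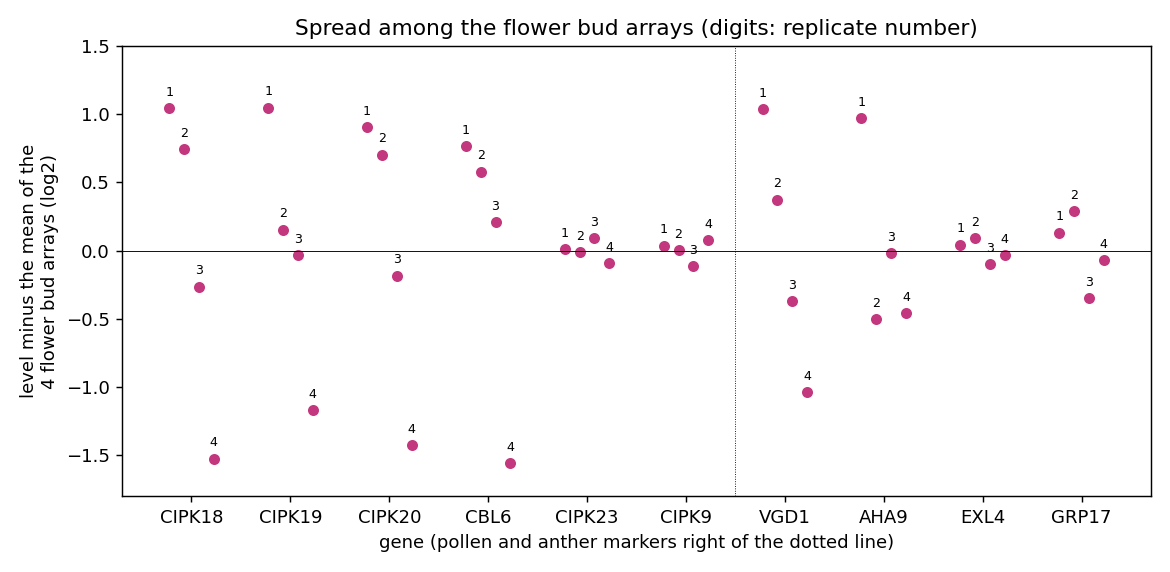
Level of 6 family members and of the 4 anther and pollen markers on each flower bud array, as log2 minus the mean of the 4 flower bud arrays, with the replicate number above each point. CIPK18, CIPK19, CIPK20 and CBL6 have replicate 1 highest and replicate 4 lowest, as has VGD1, whereas CIPK23, CIPK9 and EXL4 stay close to 0.

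Genes known to act with CIPK-CBL complexes were read from a list of 30, of which 29 had a probe. Of these, 4 were called higher in flower buds, 16 higher in roots and 9 were not called, beside 30.2% and 24.8% of all genes called in these directions. The median difference was -1.61, against 0.15 for all genes. Of the 9, 7 had an adjusted p under 0.05 and a difference under 2-fold. The transport targets held most of the calls, with 3 for flower buds and 9 for roots. AKT1, the potassium channel activated by CIPK23, had levels of -5.40, -5.51, -5.45 and -5.33 in flower buds, against 1.62, 1.36, 1.72 and 1.56 in roots, at -6.99 ± 0.10. AKT2, the phloem potassium channel targeted by CIPK6 and CBL4, showed the reverse with 2.57, 2.67, 2.17 and 2.48 in buds and -4.53, -4.13, -4.70 and -5.48 in roots, at 7.18 ± 0.27. Both channels were well above background on all 8 arrays.

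Other uptake proteins under CIPK23 were higher in roots. NPF6.3, the dual-affinity nitrate transporter, differed by -6.13 ± 0.18. The ammonium transporters AMT1;1 and AMT1;2 differed by -3.21 ± 0.12 and -1.84 ± 0.25. IRT1, the iron transporter, differed by -4.63 ± 0.46. No flower bud array was well above background for the potassium transporter HAK5. The bound used for CBL5 put HAK5 124-fold higher in roots, and its difference under normexp, -4.14, was smaller than that. The sodium exporter SOS1 had -2.18, -2.17, -2.28 and -2.08 in buds and -0.82, -0.82, -0.92 and -0.88 in roots, and its difference of -1.32 ± 0.08 was close in size to that of CIPK24; it was -0.90 and thus under 2-fold with scaling on reference genes. The proton pump AHA2 and the anion channel SLAH3 were also higher in roots, at -3.33 ± 0.20 and -3.77 ± 0.31.

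Higher in flower buds beside AKT2 were SLAC1, the guard cell anion channel, and CAX1, a vacuolar calcium exchanger, at 1.97 ± 0.17. SLAC1 was not well above background on any root array. The bound used for CBL5 put it 9.76-fold higher in buds, but its difference under normexp was only 1.09. All 3 NADPH oxidases on the list had negative differences. RBOHC of root hairs differed by -4.23 ± 0.20 and RBOHF by -2.61 ± 0.10, while RBOHD was not called at -0.85 ± 0.15. Under median centring RBOHD and the regulator BIN2 just passed 2-fold and were called, at -1.01 and -1.02.

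Among the regulators 2 were called. GRF6 and GRF8, which are 14-3-3 proteins that hold SOS2 inactive, were called higher in roots at -1.35 ± 0.18 and -1.61 ± 0.14, and GRF6 was at -0.93 with scaling on reference genes. The other 8 with a probe were not called. Among them the phosphatases ABI1, ABI2 and PP2CA, which bind CIPK kinases, differed by -0.72 ± 0.18, 0.48 ± 0.15 and -0.45 ± 0.22, and the kinase GRIK1, which phosphorylates the activation loop of SOS2, by -0.49 ± 0.12. GIGANTEA (GI), a clock protein that sequesters SOS2, varied widely among pools, with -1.41, -1.48, -0.93 and -3.27 in flower buds and 0.56, 0.60, 1.21 and -2.15 in roots. Its difference of -1.83 ± 0.79 was not called, but was -2.56 and called without root replicate 4, and it was also called under normexp, quantile normalization, median centring and the filter on all 8 arrays. The transcription regulators FIT, ABR1 and NPR1 were higher in roots at -5.03 ± 0.21, -4.55 ± 0.33 and -1.99 ± 0.10, and ABI5, a bZIP factor of abscisic acid signalling that CIPK26 phosphorylates, was higher in flower buds at 5.81 ± 0.17. No p is given for HAK5 and SLAC1, whose values in 1 tissue are background. Among the other calls of this list the highest adjusted p, in limma with Benjamini-Hochberg adjustment, was 0.000179. ABI5 was well above background on 3 of the 4 root arrays. Under normexp AKT1 was at -6.30, AKT2 at 6.42, HAK5 at -4.14, SLAC1 at 1.09, ABI5 at 4.51 and ABR1 at -3.04.

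**Figure D5:**
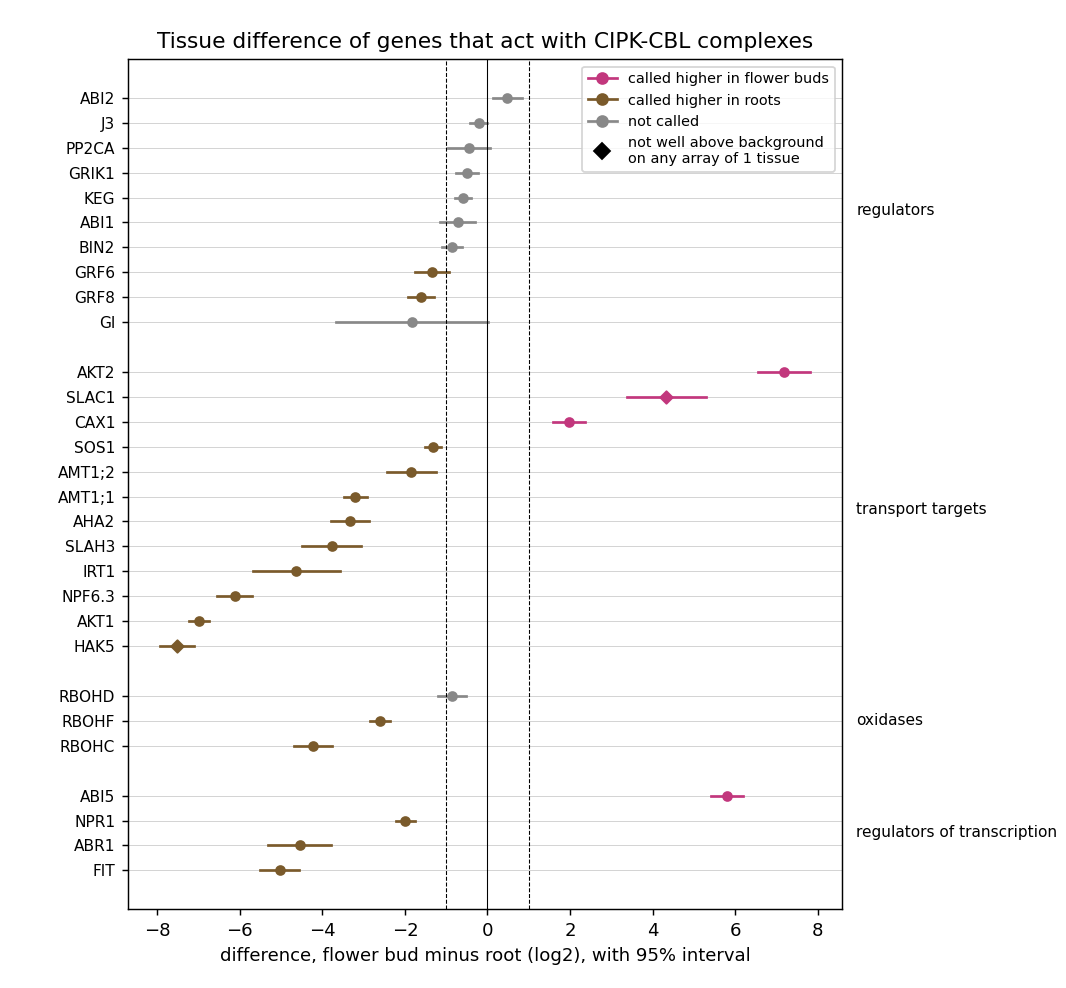
Difference of the 29 measured genes that act with CIPK-CBL complexes, as log2 of flower bud minus root with its 95% interval, grouped by role; dashed lines mark 2-fold and diamonds mark genes that no array of one tissue measured well above background. The potassium channels AKT2 and AKT1 lie on opposite sides of 0, at 7.18 and -6.99, and the regulators lie between -1.83 and 0.48.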

How the data were processed

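Each sample was hybridised to a one-colour Agilent array. Processed spot intensity (background-subtracted and dye-normalized) was written by Agilent Feature Extraction, per the file headers. A log2 table of the same arrays was also deposited; it matched the scanner values, shifted to the 75th percentile and centred on each probe's median, at r of 0.9999997 or more, so its scale, centring and direction are known, and its column medians ran from -0.0582 to -0.00796 in flower buds and from -0.0105 to 0.0948 in roots.

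From the intensity values, outlier and control spots were left out and spots of 1 probe averaged. Log2 values were taken relative to the 75th percentile of each array. Probes were matched to loci through the files' accession column and the RefSeq table of names: 34285 of 43603 probes matched 1 locus and 9318 none. The brightest probe stood for each locus. Genes well above background on all 4 arrays of a tissue were tested (limma 3.58.1, R 4.3.3; lmFit and eBayes, Benjamini-Hochberg), and called at an adjusted p under 0.05 and 2-fold. The fit was tested on simulated data. Alternatives are in the closing section. For normexp, median rather than mean signals were used (offset 50). The 408 repeated lines in 6 files were identical and dropped.

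All CIPK and CBL genes are named, with values per array where called. The members and lists were chosen with earlier results of these data known; 1 gene of the list of interacting genes is not reported here and is left out of its counts. Nothing in the labels used here says that the replicate pools were grown in separate experiments, so p-values cover only how these pools vary; with 4 arrays per tissue their number limits the precision.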

Additional observations from a re-analysis of the deposited data

Results flagged for a closer look

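In 13 of the 158 groups of 4 arrays examined, 1 array lay apart from the other 3 by a share of the group's range above Dixon's 95% critical value for 4 values; chance alone gives about 1 in 20. All values are log2 levels relative to the 75th percentile. Among the kinases, flower bud replicate 3 was low for CIPK5, at -0.94 against -0.24 to -0.09, and for CIPK11, at -0.81 against 0.28 to 0.36. Flower bud replicate 4 was low for CIPK15, at 0.33 against 0.71 to 0.78. Root replicate 4 was low for CIPK3, at 2.735 against 3.20 to 3.30, and for CIPK19, at -2.31 against -1.30 to -1.18. It was high for CIPK6, at 3.81 against 2.84 to 2.96. Among the sensors, root replicate 4 was low for CBL6, at -0.91 against -0.62 to -0.58.

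Among the interacting genes, flower bud replicate 1 was high for GRIK1, at 0.78 against 0.68 to 0.69, and low for HAK5, at -10.10 against -9.57 to -9.53, where no flower bud array was well above background. Flower bud replicate 4 was low for SLAH3, at -1.62 against -1.23 to -1.18, and high for FIT, at -2.04 against -2.84 to -2.74. It was also low for the green-tissue marker RBCS2B, at 6.56 against 6.65 to 6.66. Root replicate 2 was low for IRT1, at 0.38 against 1.095 to 1.175.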

How the results depend on the processing

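Of 661 values of family members under other settings, 641 kept their direction and side of the call, and 22 of the 28 called members did so in every setting that gave them a value (CIPK13, CIPK17, CIPK20 and CBL5 had none under the filter on all 8 arrays). Scaling on reference genes turned the sign of CIPK6 (0.010), CIPK10 (0.26), CIPK14 (0.12), CBL1 (0.12) and J3 (0.20), none of them called before, and gave medians of -1.30 for the family and -1.19 for the interacting genes. CIPK18 ran from -0.19 to 0.66 on leaving out 1 array, its sign turning without flower bud replicate 1 (-0.19) or 2 (-0.09), and CBL2 to -0.059 under median centring. Under normexp CIPK5 and CIPK8 were under 2-fold, at -0.89 and -0.97, and CIPK8 was at -0.98 under quantile normalization. Restricted to genes well above background on all 8 arrays, the calls in flower buds were 1 kinase, 1 sensor, 2 interacting genes and 4002 genes in all. The 4002 are 22.3% of the 17962 genes tested, against 30.2% of 22264 in the main fit, while the calls in roots were 24.7% and 24.8%. CIPK20, CBL5, SLAC1 and ABI5 did not meet this condition and were not tested under it. Without the 2-fold limit 9931 genes were called for flower buds and 8369 for roots. Median centring gave 19 interacting genes higher in roots, with GI, BIN2 and RBOHD added. Leaving out 1 replicate at a time gave 2 kinases higher in flower buds and 18 to 19 higher in roots, 2 and 5 sensors, and 4 and 16 to 17 interacting genes. It gave 6608 to 6929 and 5475 to 5556 genes in all (12103 to 12421 together), family medians of -1.75 to -1.56 and interacting-gene medians of -1.66 to -1.44. Past the exact test were 2 to 3 gene pairs. That count takes in CIPK19 and CIPK20, for which no p is given because all root values of CIPK20 are background. Same-numbered arrays correlated at -0.27 to 0.10 in their deviations over all genes. These correlations cannot settle whether the numbers pair the samples, and the main fit did not pair them. With the replicate block, CIPK17 was not called (adjusted p = 0.0765 in limma) and GI was called (-1.83, adjusted p = 0.000812). The block gave 6695 genes higher in flower buds and 5509 in roots. With it, 0 gene pairs passed an exact test that cannot go below 0.125 with 4 blocks. The causes of these shifts were not tested. Signal that was not well above background limits CIPK13 in flower buds and CIPK20 and CBL5 in roots to bounds.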
